A study of Mus musculus with 6 samples.

Results

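RNA-seq counts were examined for 7 genes of the sterol pathway, namely *Hmgcs1*, *Idi1*, *Fdft1*, *Sqle*, *Lss*, *Dhcr7* and *Insig1*, in brain tissue of mice that overexpressed the long non-coding RNA *AP1AR-DT* and of control mice. The genes were chosen by symbol, and each matched 1 of the 52390 genes listed. They encode 6 enzymes of cholesterol synthesis and 1 inhibitor of that synthesis, and no LDL receptor gene is among them. All 7 had enough counts to be tested, as had 21844 of the genes listed.

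Cholesterol is built from acetyl-CoA by way of mevalonate, isoprenoids, squalene and lanosterol. The genes of these steps are targets of SREBP2, a membrane-bound transcription factor that INSIG proteins retain in the endoplasmic reticulum with its escort SCAP when sterol is plentiful, and that is released by cleavage in the Golgi when sterol is scarce. Brain cells make their own cholesterol, since lipoproteins of the blood do not cross into the brain, and oligodendrocytes put much of it into myelin, while astrocytes supply neurons.

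There were 3 control mice and 3 *AP1AR-DT* OE mice, all male C57BL/6, a common inbred laboratory strain. At 8 weeks of age both groups received a recombinant adeno-associated virus (AAV) in the medial prefrontal cortex (mPFC). The *AP1AR-DT* OE virus carried the human lncRNA, which the labels call AC109347.1, driven by the human synapsin I promoter, a neuronal promoter, and control mice received the vector without insert. The vector also encodes EGFP under the CMV promoter. The labels give brain as the tissue of all 6 and wild type as the genotype of the controls, and the study's text names both mPFC and cortical tissue. The transgene acts in infected neurons, whereas these libraries hold RNA of all cells of the tissue. As the human lncRNA was not counted on the mouse genome, its level could not serve to check the labels.

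To show where exact matches to motifs of sterol gene promoters do and do not occur, the 250 bases upstream of the start site are given for 3 genes. These are the genes whose values did not overlap between the groups, all lower in *AP1AR-DT* OE, as 12% of all genes tested were. The sequences are from RefSeq on GRCm38.p6, all on the plus strand, at chr13:119690101-119690350 for *Hmgcs1*, chr13:8885356-8885605 for *Idi1* and chr5:28071162-28071411 for *Insig1*. Capitals mark matches to the sterol regulatory element, searched as TCACNCCAC, and to the CCAAT box of the factor NF-Y, which reads ATTGG on the other strand.
Hmgcs1: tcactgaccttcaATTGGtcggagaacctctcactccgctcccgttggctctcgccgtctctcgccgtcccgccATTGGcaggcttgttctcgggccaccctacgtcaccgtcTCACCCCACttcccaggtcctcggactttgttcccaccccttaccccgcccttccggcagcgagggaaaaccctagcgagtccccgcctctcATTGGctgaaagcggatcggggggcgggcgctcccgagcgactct
Idi1: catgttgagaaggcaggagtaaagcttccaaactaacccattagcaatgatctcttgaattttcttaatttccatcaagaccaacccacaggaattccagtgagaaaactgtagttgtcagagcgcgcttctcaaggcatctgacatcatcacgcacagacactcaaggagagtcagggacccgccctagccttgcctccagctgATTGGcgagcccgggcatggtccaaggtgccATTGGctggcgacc
Insig1: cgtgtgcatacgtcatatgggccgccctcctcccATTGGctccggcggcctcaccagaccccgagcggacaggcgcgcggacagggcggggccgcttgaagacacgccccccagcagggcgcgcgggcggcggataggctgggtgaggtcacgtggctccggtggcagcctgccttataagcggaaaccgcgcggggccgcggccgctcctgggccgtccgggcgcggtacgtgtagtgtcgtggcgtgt

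Windows of 300 bases, 250 before and 50 after each start, were searched on both strands in 5 of the 7 genes, with 7 start sites among them. The sterol regulatory element, the site bound by SREBP proteins, matched in *Hmgcs1* alone of the 5, as TCACCCCAC from position -137 to -129 counted from the start site, and 1.24% of 32851 mouse promoters held a match. A CCAAT match was present in 5 of 5 genes, against 37.4% of all promoters. *Hmgcs1* held 4 such matches, of which 1 lies after the start and is not shown, *Idi1* held 2 and *Insig1* held 1. A GC box of the Sp1 family, searched as GGGCGG, was present in 5 of 5 genes and in 35.7% of all promoters. The motif of NRF1, the factor the study also examined was present in *Lss* and *Dhcr7* and in 4.6% of all promoters. Both the sterol regulatory element and a CCAAT match were held by 0.441% of all promoters. GC boxes can overlap other GC-rich motifs, and a gene with several start sites has more windows in which to match. A match describes letters only, and a site with other letters or outside the windows would not be found.

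The libraries held 42061721 to 54668294 counts. They are called control 1 to 3 and *AP1AR-DT* OE A to C, since the columns of the latter do not carry the numbers of the mice. Libraries of a group stood apart in markers of other brain regions and cell types. The 6 choroid plexus markers summed to 3900 normalized CPM (CPM, each library's counts divided by its total after TMM scaling) in control 3 and to at most 74.3 in any other library, and *Ttr*, the transthyretin gene, was at 3426 normalized CPM there. The 6 hypothalamic markers summed to 476 in control 2 and to 0.983 in control 1, with *Oxt* (oxytocin) at 281 and *Avp* (vasopressin) at 184 in control 2. Excitatory neuron markers, led by *Camk2a* and *Nrgn*, summed to 1300 in control 2 and to 3410 in *AP1AR-DT* OE library B. *Slc17a7*, the vesicular glutamate transporter of cortical excitatory neurons, picked after its values were seen, was at 3.85 normalized CPM in control 2 and between 28.2 and 463 in the other libraries. Mitochondrial genes took 7.2% to 9.86% of the counts in controls and 5.75% to 6.8% in *AP1AR-DT* OE. In such bulk samples, fewer cells of a type and less RNA per cell cannot be told apart.

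To ask whether sterol synthesis differed between the groups, the 7 genes were tested in one model of all genes with the two-sided quasi-likelihood test of edgeR. A gene was called a differentially expressed gene (DEG) at |Log2FC| above 0.32 and *P* under 0.05, the thresholds of the study, with Log2FC as *AP1AR-DT* OE minus control. *Idi1* was the only DEG of the 7, with a Log2FC of -0.40, and fell in *AP1AR-DT* OE mice. Downregulated DEGs made up 7.15% and upregulated DEGs 5.1% of all genes tested, or 12.2% together. At an adjusted *P* under 0.05 by edgeR with Benjamini-Hochberg adjustment, 0 of the 7 and 0.0275% of all genes were called, and 1 of the 7 had an unadjusted *P* under 0.05. DESeq2 and limma-voom also gave 0 of the 7 at an adjusted *P* under 0.05. In 6 of the 7 the Log2FC was below 0, with a median of -0.18. Of all 21844 genes tested, 11260 had a Log2FC below 0, and the median was -0.01. The groups had no overlapping values in *Hmgcs1*, *Idi1* and *Insig1*, lower in *AP1AR-DT* OE each time, as in 12% of all genes, with another 10.4% non-overlapping in the other direction (22.4% together). Of the 7, 0 did so in that other direction. Each of these counts rests on 3 mice per group, and the p-values of these models weigh a difference between the groups against the spread among these samples.

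**Figure D1:**
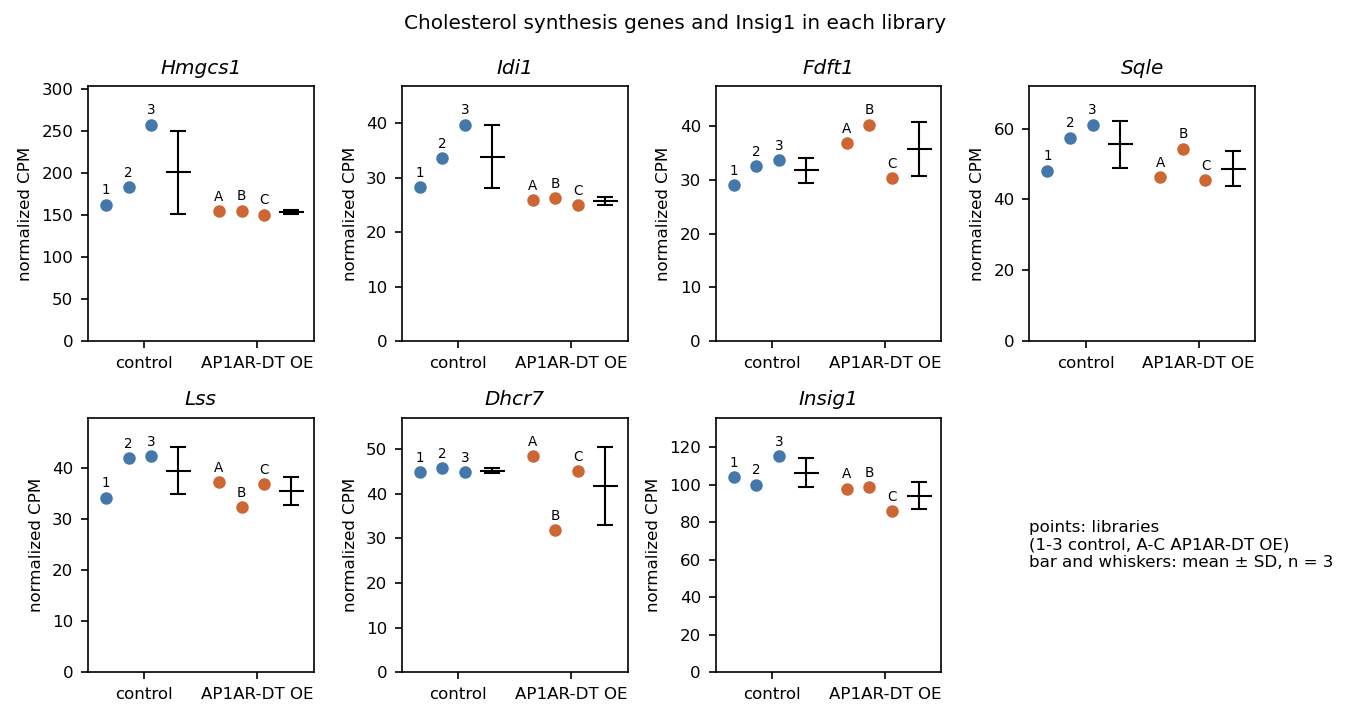
Normalized CPM (vertical axis, from 0) of each of the 7 genes in 3 control libraries (blue, 1 to 3) and 3 *AP1AR-DT* OE libraries (orange, A to C), with the mean and SD of each group as bar and whiskers (n = 3). *Hmgcs1* spread from 162 to 257 among controls and from 150 to 155 among *AP1AR-DT* OE libraries, and control 3 was the highest library for *Hmgcs1*, *Idi1*, *Sqle*, *Lss* and *Insig1*.

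At the head of the mevalonate pathway, *Hmgcs1* (ENSMUSG00000093930, chr13:119690379-119708260 on GRCm38) encodes cytosolic HMG-CoA synthase, which makes the substrate of the rate-limiting reductase. It was at 162, 183 and 257 normalized CPM in controls 1, 2 and 3 and at 154, 155 and 150 in *AP1AR-DT* OE libraries A, B and C. All 3 *AP1AR-DT* OE values lay below the lowest control, close to controls 1 and 2 and far from control 3. The means were 200.4 ± 49.7 (SD, n = 3) in controls and 153 ± 2.29 (SD, n = 3) in *AP1AR-DT* OE. The Log2FC was -0.39 ± 0.168 (SE) with a 95% interval from -0.787 to 0.00568. The unadjusted *P* of 0.0526 by edgeR left it outside the DEGs, with an adjusted *P* of 0.335 after Benjamini-Hochberg adjustment and an exact permutation *p* of 0.1, the smallest that 3 mice against 3 can give. It was a DEG with DESeq2, at a Log2FC of -0.38, and with edgeR when control 1 was left out, at -0.52. The spread was wider among controls, with a coefficient of variation of 24.8% against 1.5%.

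*Idi1* (ENSMUSG00000058258, chr13:8885501-8892451) encodes isopentenyl-diphosphate isomerase, which interconverts the building blocks of isoprenoids. Its normalized CPM were 28.2, 33.6 and 39.7 in controls 1 to 3 and 25.9, 26.2 and 24.9 in *AP1AR-DT* OE A to C. The groups did not overlap, and the *AP1AR-DT* OE libraries were again nearest to control 1. With means of 33.8 ± 5.78 and 25.7 ± 0.699 (SD, n = 3 each), the fitted level in *AP1AR-DT* OE was 0.759 times that of controls. Its Log2FC of -0.40 ± 0.139 (SE; 95% interval from -0.727 to -0.0695) had *P* = 0.0241 and a Benjamini-Hochberg adjusted *P* of 0.296 in edgeR, beside an exact permutation *p* of 0.1, again the smallest possible. The call did not hold in every fit with 1 library left out, each of which had fewer mice. Without control 3 the Log2FC was -0.25 and *Idi1* was not a DEG. Without control 2, A, B or C the Log2FC stayed near -0.40 (-0.39, -0.40, -0.41 and -0.36), but *P* by edgeR was not under 0.05. Without control 1 *Idi1* was a DEG, at -0.51.

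Squalene is made by the product of *Fdft1* (ENSMUSG00000021273, chr14:63145150-63179578), farnesyl-diphosphate farnesyltransferase, the first enzyme committed to sterols. *Fdft1* was at 29.1, 32.6 and 33.7 normalized CPM in controls and at 36.9, 40.3 and 30.4 in *AP1AR-DT* OE. It was the gene of the 7 with a Log2FC above 0, and library C fell within the range of the controls. The Log2FC of 0.17 ± 0.132 (SE; 95% interval from -0.138 to 0.485) did not pass the test, with *P* = 0.23 and an adjusted *P* of 0.549 by edgeR with Benjamini-Hochberg adjustment and an exact permutation *p* of 0.3.

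*Sqle* (ENSMUSG00000022351, chr15:59315077-59331192) encodes squalene epoxidase, a rate-limiting oxygen-dependent step. Controls 1 to 3 held 48.1, 57.5 and 61.1 normalized CPM and *AP1AR-DT* OE A to C held 46.3, 54.4 and 45.5. Libraries A and C lay below all controls, while B lay between controls 1 and 2. For this gene edgeR gave a Log2FC of -0.19 ± 0.127 (SE; 95% interval from -0.489 to 0.111), with *P* = 0.181 and a Benjamini-Hochberg adjusted *P* of 0.497, and the exact permutation *p* was 0.2.

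*Lss* (ENSMUSG00000033105, chr10:76531588-76557138) encodes lanosterol synthase, which closes the sterol rings. The values were 34.2, 42.02 and 42.3 normalized CPM in controls and 37.2, 32.4 and 36.9 in *AP1AR-DT* OE, so that control 1 lay among the *AP1AR-DT* OE libraries. Its Log2FC was -0.15 ± 0.122 (SE; 95% interval from -0.441 to 0.134), with *P* = 0.249 and an adjusted *P* of 0.567 by edgeR with Benjamini-Hochberg adjustment, and 0.3 in an exact permutation test.

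The last step of one branch is catalysed by the product of *Dhcr7* (ENSMUSG00000058454, chr7:143823145-143848410), 7-dehydrocholesterol reductase, which is defective in Smith-Lemli-Opitz syndrome. Controls were tight at 44.8, 45.7 and 44.8 normalized CPM, and *AP1AR-DT* OE libraries held 48.3, 31.8 and 45.0. Library B alone was low, and A was the highest of all. The Log2FC of -0.11 ± 0.16 (SE; 95% interval from -0.49 to 0.265) had *P* = 0.504 and an adjusted *P* of 0.761 by edgeR with Benjamini-Hochberg adjustment, with an exact permutation *p* of 0.9. Without library B the Log2FC was 0.05.

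*Insig1* (ENSMUSG00000045294, chr5:28071363-28078662) encodes the retention protein that holds SCAP and SREBP in the endoplasmic reticulum and is itself an SREBP target. It was at 104, 99.96 and 115 normalized CPM in controls and at 97.8, 98.6 and 85.7 in *AP1AR-DT* OE. The groups did not overlap, though library B lay just below control 2. Its Log2FC of -0.18 ± 0.0987 (SE; 95% interval from -0.411 to 0.0546) had *P* = 0.113 and an adjusted *P* of 0.421 by edgeR with Benjamini-Hochberg adjustment, beside an exact permutation *p* of 0.1.

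Several measured properties moved with these values, and their part in the results was not tested. Log2FC rose with the GC content of genes over the whole table, from a median of -0.30 in the lowest decile of GC content to 0.22 in the highest. *Hmgcs1* and *Idi1*, with 43.1% and 41.9% GC in their longest transcripts, were in the second lowest decile, whose median Log2FC was -0.21. *Fdft1* (51.8%) and *Dhcr7* (52.8%) were in a decile with a median of 0.08, and *Sqle*, *Lss* and *Insig1* (48.2% to 48.7%) in one with a median of -0.03. With a smooth trend of counts on GC content removed from each library, the Log2FC was -0.19 for *Hmgcs1*, -0.17 for *Idi1*, 0.10 for *Fdft1*, -0.17 for *Sqle*, -0.14 for *Lss*, -0.20 for *Dhcr7* and -0.14 for *Insig1*, and 0 of the 7 were DEGs by edgeR. Without control 3 the Log2FC was -0.16 for *Hmgcs1*, -0.25 for *Idi1*, 0.23 for *Fdft1*, -0.10 for *Sqle*, -0.09 for *Lss*, -0.10 for *Dhcr7* and -0.11 for *Insig1*, again with 0 DEGs. The 3 non-overlapping genes stayed so without it by construction, beside 17.9% of all genes then lower without overlap.

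**Figure D2:**
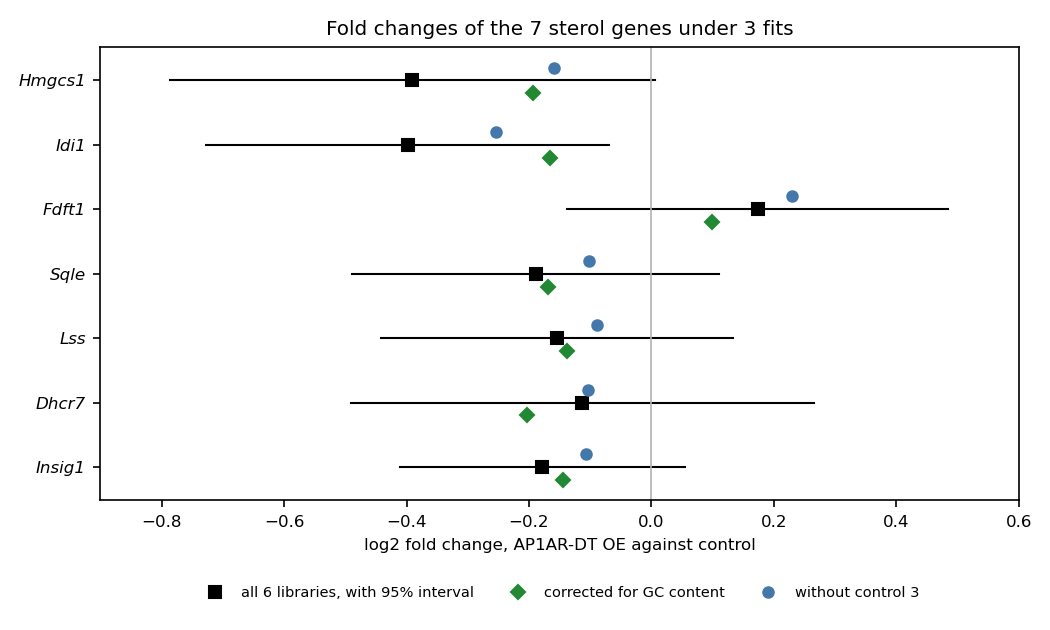
Log2FC (horizontal axis, *AP1AR-DT* OE against control) of the 7 genes in 3 edgeR fits, with all 6 libraries (black squares, lines are 95% intervals), with correction for GC content (green diamonds) and without control 3 (blue circles). *Hmgcs1* moved from -0.39 to -0.19 and -0.16 and *Idi1* from -0.40 to -0.17 and -0.25, while *Fdft1* was above 0 in all 3 fits.

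Some reads may be shared with other genes. In *Idi1*, 27.6% of the 100-base stretches of the longest coding transcript also occurred in transcripts of 3 other genes, mostly *Gm13502*. For *Fdft1* the share was 21.5%, mostly with *Ctsb* (cathepsin B), which lies on the opposite strand and overlaps 18.3% of its exonic bases. *Ctsb* itself was at 417 to 477 normalized CPM in controls and at 446 to 504 in *AP1AR-DT* OE. *Hmgcs1* shared 10.8% of its stretches, with *Gm48342* on the opposite strand, *Lss* shared 1.31%, and *Sqle*, *Dhcr7* and *Insig1* shared 0%. The library kit does not mark strand, so reads of overlapping genes on opposite strands cannot be told apart, and the levels of *Idi1*, *Fdft1* and *Hmgcs1* are uncertain to that extent.

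To compare levels between genes, normalized CPM were divided by the length of the longest coding transcript in kilobases (kb). *Hmgcs1* was the most abundant at 51.0 ± 11.8 normalized CPM per kb (SD over 6 libraries), followed by *Insig1* at 37.1 ± 3.5 and *Sqle* at 18.9 ± 2.34. The ranges of these 3 did not overlap with each other. *Dhcr7* followed at 15.4 ± 2.08, *Idi1* at 9.83 ± 1.91, *Fdft1* at 9.15 ± 1.13 and *Lss* at 8.04 ± 0.859. Each of these neighbours overlapped in range, and *Idi1* exceeded *Fdft1* in only 3 of 6 libraries, all of them controls.

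How the 7 genes moved together across libraries is given as a description over 6 libraries that share their normalization. *Hmgcs1* and *Idi1* were the closest pair, with a Pearson r of 0.96 on the log2 scale, and 0.95 for deviations from the group means. *Sqle* followed both, with r = 0.81 with *Hmgcs1* and 0.86 with *Idi1*. Of the 21 pairs, 16 had r above 0, with a median of 0.34, and 3 had r above 0.8. *Dhcr7* and *Fdft1* were least alike, with r = -0.61. The mean of the 7 genes, as log2 levels centred on all 6 libraries, was -0.07, 0.09 and 0.24 in controls 1 to 3 and -0.03, -0.09 and -0.14 in *AP1AR-DT* OE A to C. Control 1 lay among the *AP1AR-DT* OE libraries, and control 3 stood highest.

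Markers of glia, the cells that make much of the brain's cholesterol, were read beside these values. The 8 oligodendrocyte markers, led by *Mbp*, the myelin basic protein gene, summed to 5360, 6850 and 11300 normalized CPM in controls 1 to 3 and to 5420, 5510 and 5520 in *AP1AR-DT* OE, and none was at 0. All 8 had a Log2FC below 0, as had all 8 astrocyte markers and 11260 of the 21844 genes tested. The mean log2 level of the oligodendrocyte markers had r = 0.92 and Spearman's rho = 0.49 with the mean of the 7 sterol genes, and r = 0.73 without control 3. Controls 2 and 3 were the 2 libraries whose sterol gene mean was farthest from its median. Without both, r was -0.65, so the relation rested on those libraries. The sterol gene means of the remaining libraries lay close together, from -0.14 to -0.03, so that r cannot show a relation of either sign. The 8 astrocyte markers were led by *Slc1a2* and *Slc1a3*, glutamate transporters, and none was at 0. They summed to 5190, 4180 and 4790 in controls 1 to 3 and to 4310, 4250 and 4170 in *AP1AR-DT* OE. Of the 8, 2 were downregulated DEGs, as were 7.15% of all genes tested. The astrocyte sum was highest in control 1. The mean centred log2 level of the astrocyte markers was highest in control 3 (0.265), as was that of the sterol genes (0.24). For astrocyte markers r was 0.78 and rho 0.54 with the sterol gene mean, and r was 0.18 without control 3. Among markers of other brain regions, r was 0.87 for the hypothalamus (0.84 without control 3), 0.82 for the thalamus (0.08) and 0.76 for the choroid plexus (-0.50). Their rho was 0.49, 0.37 and -0.03 in that order, and without the same 2 libraries r was -0.50, -0.73 and -0.74. Striatum markers went the other way, with r = -0.61 and rho = -0.43. The part of any of these cell types or regions in the sterol gene values was not tested.

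**Figure D3:**
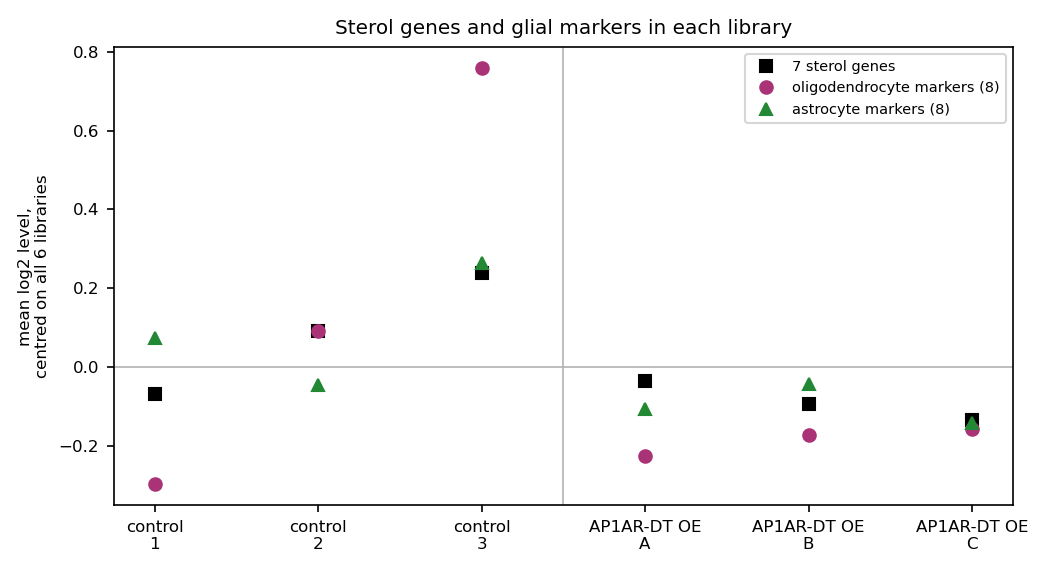
Mean log2 level centred on all 6 libraries (vertical axis) of the 7 sterol genes (squares), 8 oligodendrocyte markers (circles) and 8 astrocyte markers (triangles) in each library. Control 3 was the highest library in all 3 lists, and control 1 was the lowest for oligodendrocyte markers while the sterol genes were lowest in *AP1AR-DT* OE library C.

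The other genes of the pathway were grouped by role, and 12.2% of all genes tested were DEGs, the share to set beside each list. Of 15 other cholesterol synthesis genes, 0 were DEGs by edgeR and 0 had an unadjusted *P* under 0.05, with 0 DEGs also by DESeq2 and limma-voom. Their median Log2FC was 0.03, with 9 of the 15 above 0, and their mean level had r = 0.02 with that of the 7 genes over 6 libraries. The smallest *P* among them was that of *Sc5d*, lathosterol oxidase, which acts just before *Dhcr7*. *Sc5d* was at 73.0, 78.7 and 77.3 normalized CPM in controls and at 62.6, 72.5 and 64.5 in *AP1AR-DT* OE, without overlap. Its Log2FC was -0.20 ± 0.0942 (SE; *P* = 0.0731 and adjusted *P* = 0.362 by edgeR, exact permutation *p* = 0.1). Corrected for GC content its Log2FC was 0.01.

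Genes that control SREBP were also not called, with 0 of 6 DEGs by edgeR, DESeq2 or limma-voom, 0 of 6 at an unadjusted *P* under 0.05 in edgeR and a median Log2FC of 0.04. *Scap*, the escort of SREBP, had the smallest *P* of them. It was at 68.0, 72.3 and 66.7 normalized CPM in controls and at 75.6, 87.5 and 72.4 in *AP1AR-DT* OE, and library C exceeded control 2 by a margin smaller than the spread of either group. Its Log2FC was 0.19 ± 0.102 (SE; *P* = 0.11 and adjusted *P* = 0.417 by edgeR, exact permutation *p* = 0.1), and -0.04 after correction for GC content.

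Among 10 genes of cholesterol uptake and trafficking, 1 was a downregulated DEG and 0 were upregulated, beside 7.15% and 5.1% of all genes tested. The list median Log2FC was -0.07. The DEG was *Stard4*, a sterol carrier protein that SREBP also controls. *Stard4* was at 26.1, 32.3 and 38.6 normalized CPM in controls and at 25.4, 26.2 and 21.8 in *AP1AR-DT* OE, so that control 1 lay just below library B. Its Log2FC was -0.40 ± 0.163 (SE; *P* = 0.0426 and adjusted *P* = 0.32 by edgeR, exact permutation *p* = 0.2), and its levels had r = 0.97 with the mean of the 7 genes. With 1 library left out it was a DEG only without control 1, with a Log2FC of -0.24 without control 3 and of -0.39, -0.42, -0.45 and -0.31 without control 2, A, B and C. It was not a DEG after correction for GC content, at -0.23.

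Cholesterol leaves brain cells by efflux to lipoproteins or by hydroxylation. Of 8 genes of efflux and turnover, 1 was upregulated and 1 downregulated, beside 5.1% and 7.15% of all genes tested. The list median Log2FC was 0.21. *Abca1*, the transporter that loads cholesterol onto apolipoproteins, was at 44.5, 46.2 and 49.6 normalized CPM in controls and at 29.3, 28.9 and 42.8 in *AP1AR-DT* OE. It was lower in all 3 *AP1AR-DT* OE libraries, least so in C, with a Log2FC of -0.47 ± 0.168 (SE; *P* = 0.0257 and adjusted *P* = 0.296 by edgeR, exact permutation *p* = 0.1). *Cyp46a1*, the neuronal cholesterol 24-hydroxylase, was at 95.04, 69.0 and 91.3 in controls and at 115, 123 and 95.2 in *AP1AR-DT* OE. It was higher in *AP1AR-DT* OE, with library C next to control 1, and its Log2FC was 0.39 ± 0.154 (SE; *P* = 0.0401 and adjusted *P* = 0.317 by edgeR, exact permutation *p* = 0.1). *Abca1* was not called without control 2, control 3, A or B (Log2FC -0.48, -0.42, -0.38 and -0.37), while it stayed a DEG after correction for GC content (-0.42). *Cyp46a1* was not called without control 2, A or B (0.27, 0.36 and 0.31), nor after correction for GC content (0.18).

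Fatty acid synthesis is driven by SREBP1, a relative of SREBP2. Of 7 such genes, 2 were downregulated DEGs and 0 upregulated, beside 7.15% and 5.1% of all genes tested. The list median Log2FC was -0.17. *Scd1*, which encodes 1 of the stearoyl-CoA desaturases, was at 518, 546 and 578 normalized CPM in controls and at 416, 434 and 433 in *AP1AR-DT* OE. The gap between the groups was wider than the range within either. Its Log2FC was -0.36 ± 0.0847 (SE), with *P* = 0.00389 and an adjusted *P* of 0.295 by edgeR with Benjamini-Hochberg adjustment, and an exact permutation *p* of 0.1. *P* was under 0.05 in 16 of 16 fits, whereas the Log2FC was -0.29 after correction for GC content and -0.30 without control 3, too small for the DEG threshold. *Me1*, malic enzyme, a source of NADPH for lipid synthesis, was at 28.6, 35.0 and 40.7 in controls and at 25.5, 29.3 and 26.2 in *AP1AR-DT* OE, with library B above control 1. Its Log2FC was -0.37 ± 0.148 (SE; *P* = 0.0415 and adjusted *P* = 0.319 by edgeR, exact permutation *p* = 0.2), and with 1 library left out it was called only without control 1. The Log2FC was -0.23 without control 3 and -0.35, -0.33, -0.43 and -0.33 without control 2, A, B and C, and -0.23 after correction for GC content, when *Me1* was not called.

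From the isoprenoid branch, which leaves the pathway before squalene, 0 of 6 genes were DEGs by edgeR, DESeq2 or limma-voom, and 0 had an unadjusted *P* under 0.05 in edgeR, with a median Log2FC of 0.06. *Ggps1*, geranylgeranyl-diphosphate synthase, had the smallest *P* of the branch, at 55.2, 59.6 and 53.7 normalized CPM in controls and 43.6, 44.0 and 53.1 in *AP1AR-DT* OE, with library C just below control 3. Its Log2FC was -0.26 ± 0.112 (SE; *P* = 0.0529 and adjusted *P* = 0.335 by edgeR, exact permutation *p* = 0.1), and 0.01 after correction for GC content. In limma-voom its unadjusted *P* was under 0.05, at a Log2FC of -0.27 that did not pass the DEG threshold. No test compared any of these lists with the 7 genes.

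**Figure D4:**
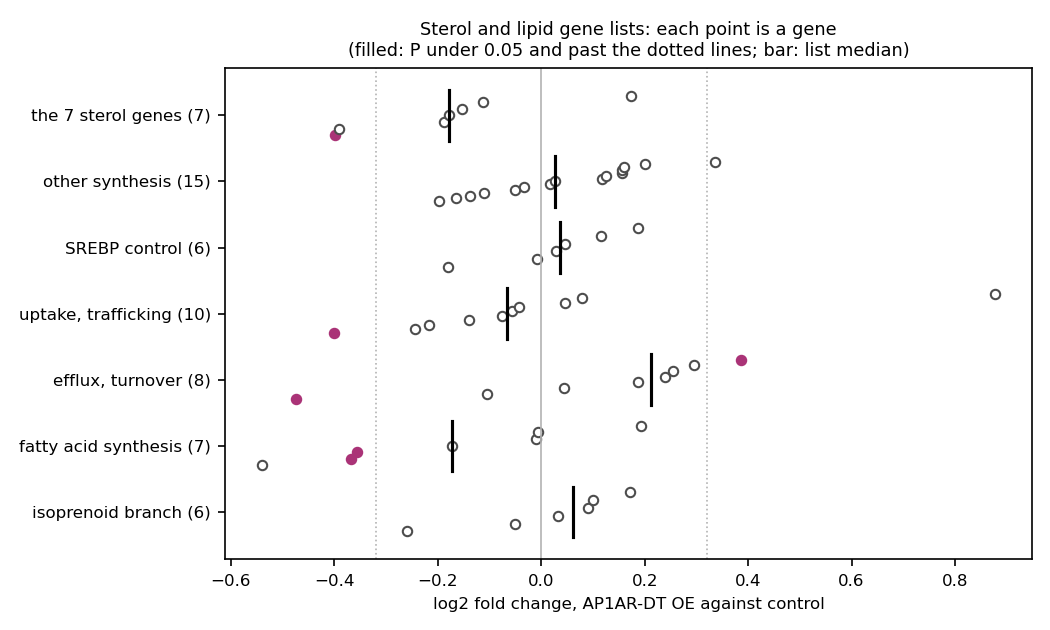
Log2FC (horizontal axis) of each gene in the 7 sterol genes and 6 related lists, with the number of genes of each list in brackets. Filled points are the 6 DEGs, dotted lines mark -0.32 and 0.32, and bars are list medians, which ran from -0.18 for the 7 sterol genes to 0.21 for efflux and turnover.

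Outside the lists, the genes whose levels were most like the mean of the 7 over 6 libraries were sought among 11915 genes with a mean log2 CPM above 3, of which 176 (1.48%) had r above 0.9. The 5 nearest were *Serpinb1a*, a serine protease inhibitor, with r = 0.992, *Nipa1*, a magnesium transporter, with r = 0.992, *Ell2*, a transcription elongation factor, with r = 0.992, *Nudcd2*, a chaperone cofactor, with r = 0.99 and *Garre1* with r = 0.983. *Nipa1*, for example, was at 41.4, 49.0 and 61.8 normalized CPM in controls and at 42.4, 37.1 and 36.1 in *AP1AR-DT* OE. Like *Hmgcs1*, it was highest in control 3, while control 1 lay within the *AP1AR-DT* OE range.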

How the data were processed

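The labels and the study's methods gave 3 mice per group. Per the study's methods, the authors mapped reads to GRCm38 with Bowtie2, which does not split reads at introns, and took counts per gene from StringTie with the GENCODE annotation. The whole-number counts were deposited without normalization. The submitters' processing notes instead name mm9, TopHat2 2.0.4, SAMtools, HTSeq, Cuffdiff and edgeR 2.6.12, and which of these made the table is not settled here. The table's identifiers, for 52081 of 52390 genes, were found in GENCODE vM21 on GRCm38, from which positions, GC content and lengths were taken. The deposited table also holds the authors' DESeq2 comparison (mean count, log2 fold change, its error, test statistic and p-values), which was not used. Use of strand in counting is not given in the sources used here, and the TruSeq kit does not mark strand.

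Genes were filtered with filterByExpr and tested with edgeR 4.0.16 (R 4.3.3, TMM factors, quasi-likelihood F-test, two-sided, Benjamini-Hochberg over 21844 genes), with all 6 libraries and no covariate. The 129 genes without a symbol (0.00928% of counts) have identifiers and were kept. The common biological coefficient of variation was 0.313. Replicates differed by more than sampling noise (lowest chi-square per gene 44.8). SE is the size of the Log2FC over the square root of F, with 95% intervals from the t distribution. Marker list means use log2 of normalized CPM plus 0.1. Alternatives were DESeq2 1.42.0, limma-voom (limma 3.58.1), other scalings and filters, natural spline corrections (5 degrees of freedom, fitted to genes with mean log2 CPM above 2) for GC content or transcript length, and each library left out. The models were tested on simulated counts. Shared sequence was searched in stretches of 100 bases. Tables were made in Python 3.11.15.

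The 7 genes, the related lists and the marker lists were chosen with earlier results of these data known. Genes named were the 7, each list's DEGs or else its gene of smallest *P*, the 5 genes most like the mean of the 7, and the 2 most abundant markers of a list said to differ, of which 1 is not reported here. Promoters are from RefSeq, with entries for 5 of the 7 genes.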

Additional observations from a re-analysis of the deposited data

How the results depend on the processing

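Of the 7 genes, 2 were called with DESeq2, with at least 10 counts in every library and with the length correction, where *Hmgcs1* passed (Log2FC -0.38, -0.40 and -0.40), and 0 with GC correction by the longest or, added after seeing the data, the coding transcript, where *Idi1* did not pass (-0.17 and -0.15). Leaving out each library gave 0 to 2 of the 7, with *Hmgcs1* between -0.52 and -0.16 and *Idi1* between -0.51 and -0.25, and *Dhcr7* was 0.051 without *AP1AR-DT* OE library B and between -0.23 and -0.09 without any other. The adjusted *P* by the model of each fit (edgeR, DESeq2 or limma) ran from 0.232 to 0.744 for *Hmgcs1* and from 0.197 to 0.751 for *Idi1*. Under the GC corrections the signs of *Sc5d* (0.0053 and 0.0198), *Scap* (-0.037 and -0.035) and *Ggps1* (0.0085 and 0.031) turned. DEGs among related genes under the GC corrections were 1 for uptake, other than *Stard4*, 1 for efflux and 0 for fatty acid synthesis, under the length correction 0 for uptake, 1 for efflux and 1 for fatty acid synthesis, and with library totals 1 for fatty acid synthesis. With a library left out they ranged from 0 to 1 for other synthesis genes, 0 to 2 for uptake, 0 to 4 for efflux, 0 to 2 for fatty acid synthesis and 0 to 1 for the isoprenoid branch, beside 0 for SREBP control in every fit run. DEGs over all genes numbered 2675 (1113 up, 1562 down), 1566 (621 up, 945 down) and 1500 (602 up, 898 down) with the GC corrections, and 1430 to 3508 (594 to 1623 up, 836 to 1950 down) with a library left out, lowest without *AP1AR-DT* OE library B. Upregulated genes were 41.6% of DEGs and 52.2% without control 3. At an adjusted *P* under 0.05 edgeR called 6 genes, DESeq2 302, and 0 to 13 with a library left out. No paired analysis was possible because the groups share only the number 3 in the labels and the *AP1AR-DT* OE columns carry no mouse number. With 3 libraries per group, the 95% intervals of *Sqle*, *Lss*, *Dhcr7* and *Insig1* held both 0 and values past the DEG threshold, with lower ends between -0.49 and -0.411.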
